A study of Drosophila melanogaster with 3 samples.

Results

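Syp, Hrb98DE, TBPH and Sxl, 4 RNA-binding protein genes of Drosophila melanogaster, were examined as full-length isoform models in fly heads. The members were all models that carry the FlyBase identifier of one of these genes, and they came to 12 models, 3 for each gene, of 5980 models and 4696 genes in the whole assembly. Sxl was the gene with the clearest structure: all 3 of its models held an extra exon between exon 2 and the exon that follows it in female transcripts, and 0 of 3 had the female junction. Syp varied in its transcription start sites (TSSs), in a pair of exons used in place of each other and in its 3′ ends, Hrb98DE in its TSSs and last exons, and TBPH in its leader and in tandem 3′ ends.

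RNA-binding proteins carry RNA recognition motifs, with which they bind short single-stranded stretches of RNA and act on splicing, 3′ end formation, localisation or translation. Sxl (Sex-lethal) is the master switch of sex determination in flies: in females the protein binds U-rich sequence beside an exon of its own pre-mRNA, the exon is skipped and a full protein is made, whereas males include the exon, which holds stop codons. Syp encodes Syncrip, related to hnRNP Q and R of mammals and known from neural stem cells and the neuromuscular junction. Hrb98DE encodes an hnRNP A/B protein, a class of abundant nuclear RNA-binding proteins that act on splice site choice. TBPH is the fly homologue of TDP-43, a protein that binds UG-rich RNA and is linked to amyotrophic lateral sclerosis.

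The samples were heads of w1118 flies, a white-eyed laboratory strain, aged 3 days, with no treatment and no second genotype. Per the study's methods, both sexes were mixed in equal amounts, so that no sample is of a single sex. FLAM-seq, in which RNA is tagged behind its poly(A) tail and complete cDNAs are read on a PacBio instrument, was run on 3 samples of 4 µg of total RNA each. The reads of these samples were merged before the models were made, so the values below are coordinates from 1 pooled assembly with no spread between samples, no comparison of conditions and no test. A model needed at least 2 full-length reads and a start supported by a promoter database. The number of reads behind each model is unknown here, so the models say which structures were found and not how abundant they were.

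Sxl (FBgn0264270, minus strand of chromosome X, 7074550 to 7098053 in the dm6 build) had 3 models that began and ended alike. All began at 7098053, the most upstream annotated start of the gene, and ended at 7082922, so the gene had 1 TSS and 1 3′ end. Each had 8 exons, and they measured 3515, 3286 and 3244 nt. These were long models for the assembly, whose median was 1487 nt: between 96.0% and 97.4% of all models were shorter. What set them apart from each other lay in exons 2, 3 and 5. Exon 2 began at 7092170 in model 1 and at 7092122, 48 nt further in, in models 2 and 3.

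The third exon carried the sex-specific structure. In model 2 it ran from 7088578 to 7088767 (190 nt) and in model 3 from 7088578 to 7088749 (172 nt). This is the male exon, and the models differed in its acceptor by 18 nt. Model 1 lacked the male exon and had in its place an exon from 7090134 to 7090504 (371 nt), which is found in 2 of the 25 annotated transcripts. The female junction joins exon 2 directly to the exon at 7087614 to 7087659, across an intron of 4014 nt from 7087660 to 7091673, and occurs in 10 of the 25 annotated transcripts. It was in 0 of the 3 Sxl models and in 0 of the 5980 models of the assembly. Of the other annotated transcripts, 7 have the male exon behind the start codon of exon 2 and 8 have another 5′ part. Among these 8, Sxl-RA and Sxl-RE also hold the male exon. The intron behind it, from 7087660 to 7088577, is thus in 9 of the 25 annotated transcripts. Read depth sets which isoforms reach a model, so the absence of female models is not a measure of female RNA.

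**Figure D1:**
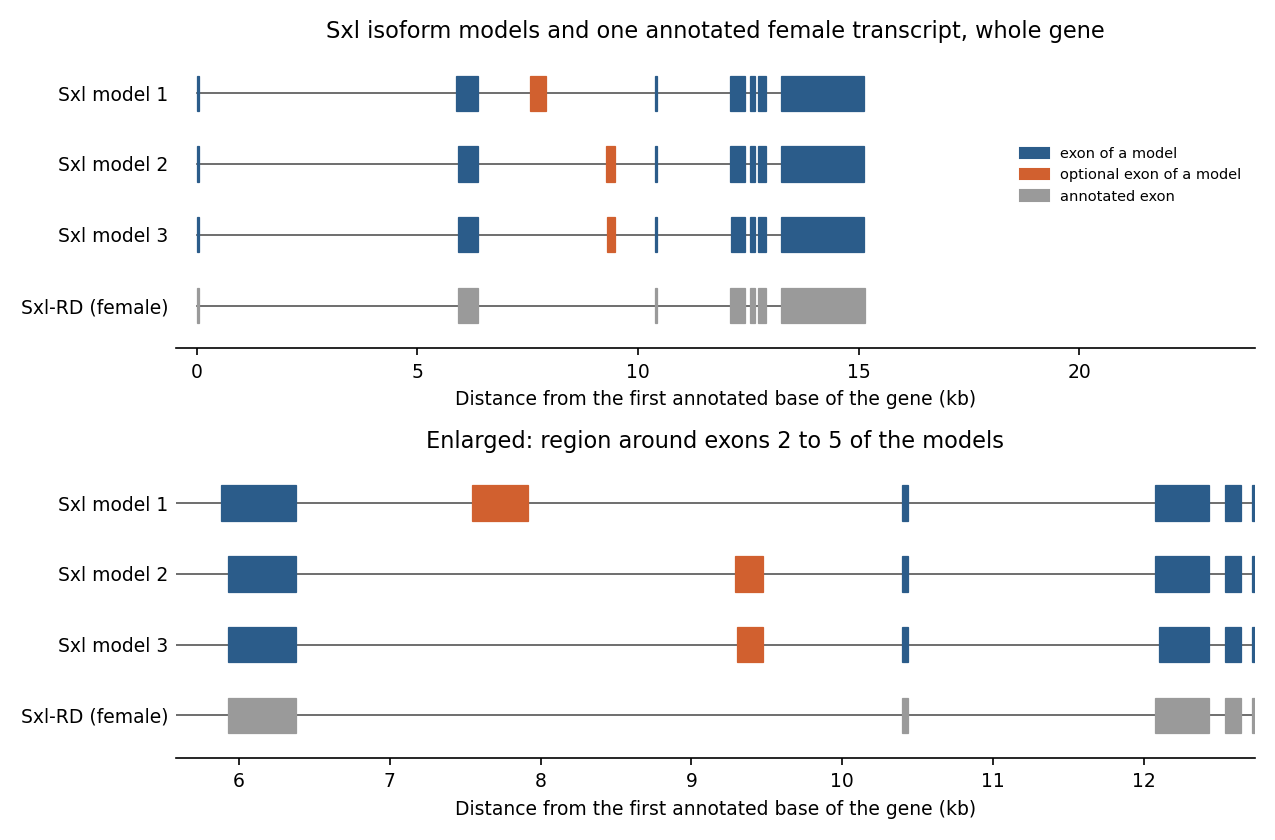
Exon maps of the 3 Sxl models and of the annotated female transcript Sxl-RD, drawn against distance from the first annotated base of the gene in kb, with the region around exons 2 to 5 enlarged. Boxes are exons, thin lines introns and orange boxes the optional exons, of which each model has 1 and the female transcript none.

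All but 1 of the introns of the 3 models were annotated. Sxl-RD, a female transcript with the same start and 3′ end, shares 5 of its 6 introns with model 2, and the remaining one is the female intron, so that model 2 equals this female transcript with the male exon added. Models 2 and 3 combine annotated introns in a chain that no annotated transcript has. In the whole assembly 5.94% of 5066 multi-exon models were such combinations, against 2 of 3 Sxl models and 1 of 3 Syp models. Model 1 had an unannotated intron, from 7090505 to 7091673 (1169 nt, GT-AG). Its donor is in 17 annotated transcripts and its acceptor in 2, but none joins them. Unannotated introns were found in 1.58% of multi-exon models, against 2 of the 12 models here, 1 of Sxl and 1 of Syp.

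The splice sites that decide between these structures are shown 5′ to 3′ on the minus strand as in the mRNA, with the last 2 bases of each intron, or the first 2 for the donor, in capitals. In the first line both acceptors of the male exon stand side by side, and the 8 T before the second lie inside the exon of model 2 and inside the intron of model 3. The second line is the donor of the male exon, the third the acceptor of the exon of model 1, and the fourth both acceptors of exon 5.
Male exon acceptors, chrX:7088748-7088777: tcgtgtgtAGacatattttttttcacAGcc
Male exon donor, chrX:7088558-7088587: ccaaagccctGTaagtaacaagactctaag
Model 1 exon 3 acceptor, chrX:7090495-7090524: tttttgtcctatatttacAGttgtatgtga
Exon 5 acceptors, chrX:7085953-7085982: acAGtcacgttatgcgttctcgccacAGga

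The extra exon ended the first reading frame early in each model. The start codon at 7091750, in exon 2, is shared by 17 annotated transcripts. It leads to 344 to 366 codons in the female ones other than Sxl-RX and Sxl-RY. Sxl-RX (722 codons) has the exons of Sxl-RH (366), and Sxl-RY (708) those of Sxl-RP (352). Their annotated products thus run past the stop codon at which the shorter ones end. Frames of the models were ended at the first stop codon. From the same start codon model 2 had 48 codons and model 3 had 42, both ending at a stop codon at 7088700 inside the male exon, and model 1 had 28, ending at 7090497. The products of models 2 and 3 are those annotated for 4 and 3 transcripts (such as Sxl-RB and Sxl-RK), and that of model 1 is not annotated. The stop codons lay 816, 792 and 1057 nt before the last exon junction in models 2, 3 and 1. A distance over 50 nt was found in 7.14% of 5669 models with an annotated start codon, and in 3 of the 12 models here, all of Sxl. The limit of 50 nt is a rule for nonsense-mediated decay in mammals, and whether these fly RNAs are degraded was not tested.

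The stop codon of the male exon is in capitals in the following sequence, which is part of models 2 and 3.
Male exon stop codon, chrX:7088685-7088714: cgaaagacactcacTGActcttaagatagt

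Longer frames began further downstream. From the start codon at 7087640, in the exon after the variable one, models 1 and 2 had 322 codons and model 3 had 314, and all ended at 7084530. The difference of 8 codons is the 24 nt between the acceptors of exon 5, at 7085978 in models 1 and 2 and at 7085954 in model 3. The same alternative separates the annotated female products of 354 and 346 codons. Model 1 also held a start codon at 7090141 in its own variable exon, with 331 codons, the product annotated for Sxl-RAC. Whether any of these frames is translated was not measured.

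Sxl protein binds runs of U, and the female intron, which holds the male exon, was rich in runs of T in the DNA. It had 13 runs of 7 or more T, with a longest run of 11. Of 602 introns of the models that were at least as long, 81.9% had such a run in their last 4014 bases, with a median of 2 and a maximum of 11, and 0 had 13. Of the 13 runs, 7 lay before the male exon, 1 between its acceptors and 5 after its donor, and outside the exon the nearest lay 243 nt before the distal acceptor and 258 nt behind the donor. A run is a description of the sequence and not a measured binding site. The longest are shown with the run in capitals.
Run before the male exon, chrX:7089120-7089149: agtggcactcTTTTTTTTTTTctttttttt
Run before the male exon, chrX:7089013-7089042: gtgccctaccTTTTTTTTTTTgcatatttt
Run before the male exon, chrX:7089717-7089746: ttctttccccTTTTTTTTTTggggtcgtat

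The genes whose RNA Sxl protein is known to act on were also in the assembly. The gene tra, the next step of the female pathway, is spliced by default to a proximal acceptor, and Sxl protein shifts it to a distal one. It had 2 models, both with exon 2 from the default acceptor at 16590930 (chromosome arm 3L) and a frame of 36 codons as in tra-RB, and 0 with the acceptor of the female transcript tra-RA at 16590755, which gives 197 codons. The gene msl-2, which encodes a subunit of the male dosage compensation complex, keeps an intron in its 5′ UTR when Sxl protein is bound. Its 1 model retained that intron of 133 nt, as in msl-2-RA, and had the annotated 773 codons. Of genes known for one sex, the female yolk protein genes Yp1, Yp2 and Yp3 had 1 model each. The male noncoding RNAs roX1 and roX2 had none, but 4651 of the 4662 annotated genes with a model were protein-coding. Their absence therefore says little about male RNA. Models of yolk protein genes, made in females, thus stood beside the male exon in Sxl models 2 and 3. They also stood beside the default structure of tra and the retained intron of msl-2. How the sexes share in the models was not tested.

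Syp (FBgn0038826, plus strand of chromosome arm 3R, 20756729 to 20810726) had the most diverse ends of the 4 genes, with 3 TSSs, 2 3′ ends and 3 combinations of them. TSSs are counted apart when over 50 nt from each other and 3′ ends when over 150 nt. Model 1 began at 20756730, model 2 at 20782984 and model 3 at 20789987, a spread of 33257 nt, each 1 nt inside an annotated start. The first exons measured 520, 597 and 346 nt and were not shared. Models 1 and 2 ended at 20797773 and model 3 at 20805511, 7738 nt further on. Model 1 had 10 exons and 1848 nt, model 2 had 9 exons and 1838 nt, and model 3 had 11 exons and 2599 nt. The upstream TSSs were therefore found with the proximal 3′ end and the most downstream one with the distal 3′ end, in 1 model each. Model 1 alone held a second exon of 87 nt, from 20772796 to 20772882, between its first exon and the shared exon at 20791745.

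**Figure D2:**
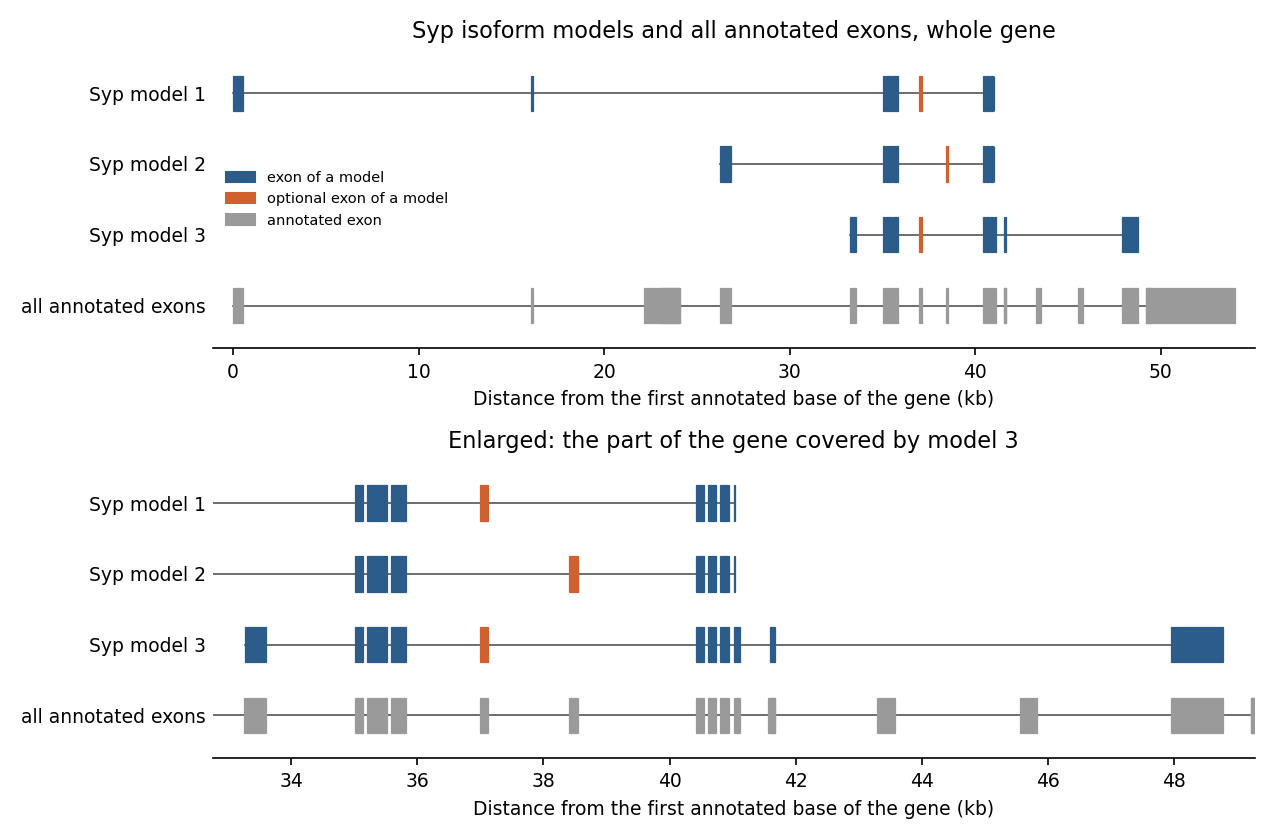
Exon maps of the 3 Syp models over all annotated exons of the gene, drawn against distance from the first annotated base in kb, with the stretch covered by model 3 enlarged. Boxes are exons and orange boxes the exons used in place of each other; models 1 and 2 stop at the same base, and model 3 passes over 2 annotated exons before its last exon.

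A pair of exons of equal length was used in the alternative. Models 1 and 3 held the exon at 20793716 to 20793851 and model 2 the exon at 20795139 to 20795274, each of 136 nt. In the annotation 17 of 20 transcripts have the first, 3 the second and 0 both. The exons were identical at 74 of 136 bases (54.4%) and at 23 of 45 encoded residues (51.1%), and being of equal length they keep the frame of the shared exons around them. They count as optional exons, that is, internal exons that lie wholly in an intron of another model of the gene. Of 698 genes with at least 2 models 20.3% had an optional exon, and of the 4 genes here Syp and Sxl did.
Their acceptors on the plus strand, with 10 bases of the exon, are shown with the last 2 bases of the intron in capitals.
First exon of the pair, chr3R:20793696-20793725: ccttccctcccacaatttAGctcgataatc
Second exon of the pair, chr3R:20795119-20795148: gaactttcaaacaattgcAGctaaatgatt

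The proximal 3′ end lay inside coding sequence. It fell 27 nt into an exon of 107 nt (20797747 to 20797853) that is coding in all 20 annotated transcripts, and its nearest annotated 3′ end was 7738 nt away. In the genome 9 of the next 10 bases and 13 of the next 20 were A. None of 12 poly(A) signal hexamers stood in the 50 genome bases up to this end, which reach into the intron before the exon. The spliced sequence was not searched. The frames of models 1 and 2 ran into this end with no stop codon, over 447 codons from the start codon at 20757237 in model 1 and over 413 from that at 20791747 in model 2. A frame without a stop was found in 0.900% of 5669 models with an annotated start codon, and in 2 of the 12 models here. FLAM-seq is made to read the poly(A) tail itself, but A-rich sequence inside a transcript can be taken for a tail. Its part in this end was not tested. Without 3′ ends followed by 7 or more A, Syp had 1 3′ end, a setting chosen after seeing the data.

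The first sequence below shows the proximal 3′ end with the bases behind it in capitals, and the second the last 30 bases of the distal 3′ end with its signal ATTAAA, which begins 17 nt before the end, in capitals.
Syp proximal end, chr3R:20797759-20797788: aaacccccctcggacAAAAAGAAAAAGGAG
Syp distal end, chr3R:20805482-20805511: atgatgagataaATTAAAcgaacaatgatc

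Model 3 was the Syp model with a complete frame. From the start codon at 20790209, in its own first exon, it had 525 codons, a stop codon at 20804710 in the last exon and a 3′ UTR of 799 nt, longer than 86.6% of those in the assembly. It reached its last exon by an unannotated intron of 6265 nt, from 20798410 to 20804674, with GT and AG at its ends. Its donor is in all 20 annotated transcripts and its acceptor in 10, but the exons at 20800017 to 20800300 (284 nt) and 20802290 to 20802551 (262 nt), which lie in it, were both skipped. Together these measure 546 nt, a multiple of 3, whereas neither does alone. No annotated protein of Syp, which span 529 to 761 codons, equals that of model 3. The acceptor is shown with the AG in capitals.
Model 3 last exon acceptor, chr3R:20804655-20804684: aaacctaaatctgtttctAGctggagctgc

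Hrb98DE (FBgn0001215, plus strand of 3R, 28599834 to 28605777) combined 2 TSSs and 2 last exons into 3 models with nearly the same protein. Model 1 began at 28599835 and models 2 and 3 at 28600408, 573 nt further on. Models 1 and 2 ended at 28605095 and model 3 at 28605777. The downstream TSS was thus found with both 3′ ends and the upstream TSS with the proximal one. All 3 had 6 exons and measured 2252, 2248 and 1529 nt. Their chains of introns were those of Hrb98DE-RE, Hrb98DE-RD and Hrb98DE-RF, so all 3 chains were annotated. Hrb98DE-RD itself ends at 28604759, and the 3′ end of model 2 is that of other transcripts, such as Hrb98DE-RE. In the assembly 92.5% of multi-exon models had an annotated chain or an unbroken part of one, against 3 of 3 for Hrb98DE, 3 of 3 for TBPH, 1 of 3 for Syp and 0 of 3 for Sxl.

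The last exons of Hrb98DE did not overlap. The proximal one ran from 28604061 to 28605095 (1035 nt) and the distal one from 28605462 to 28605777 (316 nt). The stop codon at 28603679 lay 17 nt before the junction with either, so the choice of last exon changed the 3′ UTR alone, from 1052 nt in models 1 and 2 to 333 nt in model 3. The assembly's median 3′ UTR was 222 nt. The choice of TSS changed the first codons. Model 1 used a start codon at 28599952 and had 360 codons, and models 2 and 3 one at 28600518 and had 361, the products annotated for these transcripts. All 3 models took the acceptor at 28600718 of exon 2 and not that at 28600706, 12 nt upstream, although 3 annotated transcripts use each.

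**Figure D3:**
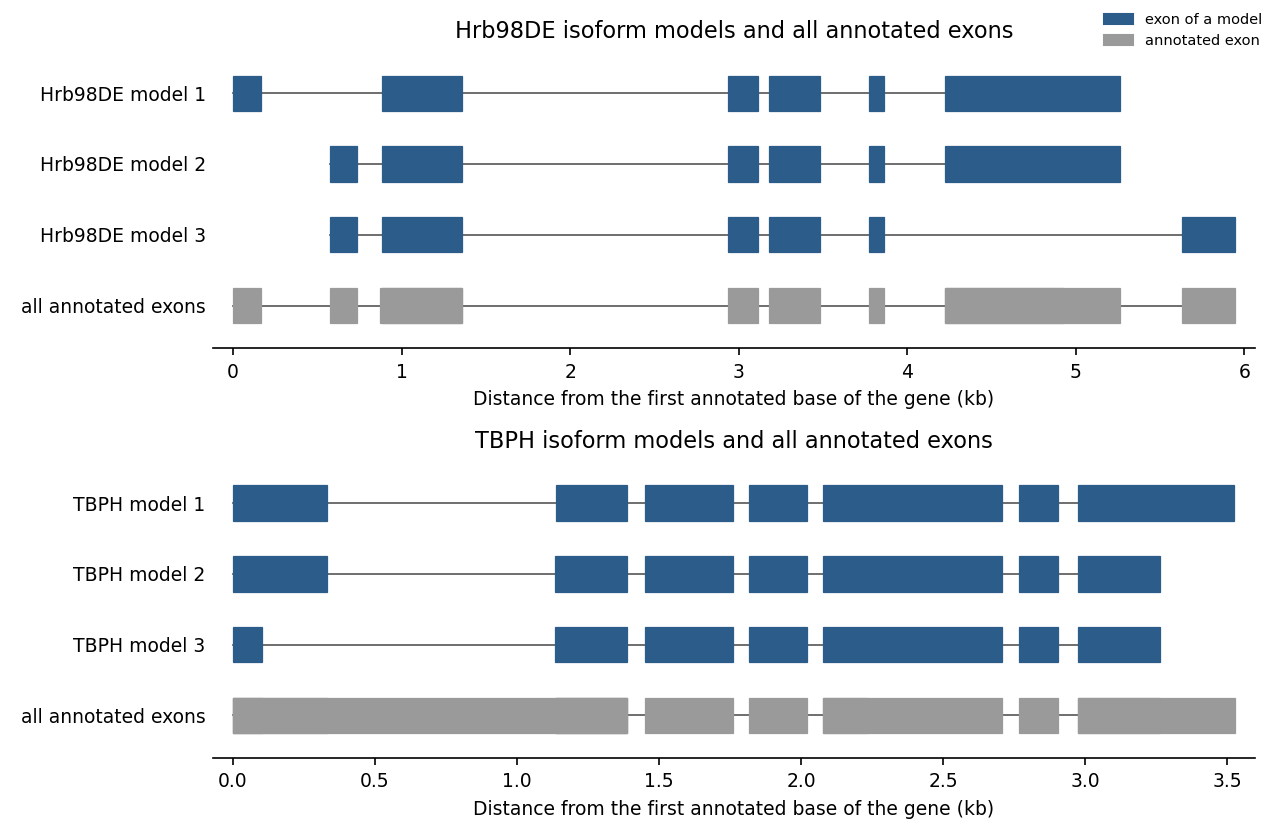
Exon maps of the 3 models of Hrb98DE (top) and of TBPH (bottom) over all annotated exons of each gene, drawn against distance from the first annotated base in kb. Boxes are exons; the Hrb98DE models differ in their first and last exons, and the TBPH models in the length of the first and the last exon.

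The alternative acceptors, the TSSs and the 3′ ends of Hrb98DE are shown on the plus strand. Capitals mark the last 2 bases of the intron in the first line, the first base of the model in both TSS lines, the 20 bases behind the proximal 3′ end in the next and the poly(A) signal in the last.
Exon 2 acceptors, chr3R:28600691-28600720: aaatcaataatttAGgactttcctcAGgac
Upstream TSS, chr3R:28599825-28599854: aatatattttCagttttagggaaggggtgc
Downstream TSS, chr3R:28600398-28600427: tagaaacggtCacactgtattcagtttttt
Proximal 3′ end, chr3R:28605086-28605115: tacaagatgcAAAAAAAAAAAATAAGCAAG
Distal 3′ end, chr3R:28605748-28605777: tttgAATAAAgaaatttcagaataccaaac

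The genome sequence behind the ends differed among the genes. All 10 bases after the proximal end of Hrb98DE were A, and it had the signal AATACA 11 nt before the end, whereas its distal end had 5 A and AATAAA. The end of Sxl had 5 A, those of TBPH 5 (proximal) and 3 (distal), and the distal end of Syp 3. Ends followed by 7 or more A made up 10.4% of 4918 3′ ends in the assembly and 2 of 7 here. They made up 17.4% of the 443 ends more than 150 nt from an annotated 3′ end of their gene and 9.67% of the 4438 within that distance. The Hrb98DE end coincides with an annotated end and the Syp end does not. Without such ends Hrb98DE, like Syp, had 1 3′ end.

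**Figure D4:**
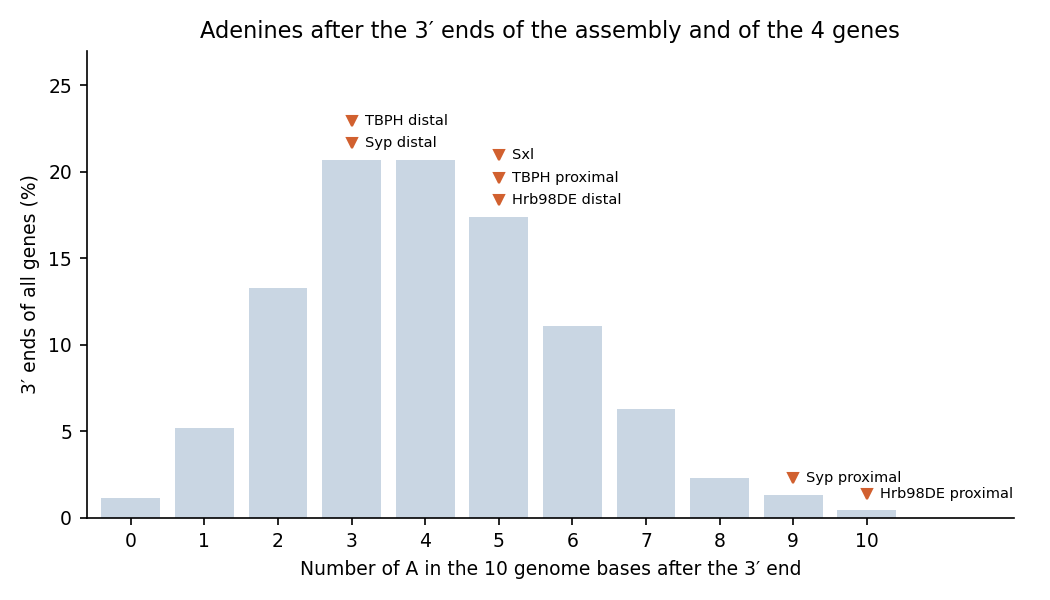
Percentage of all 4918 3′ ends (bars) by the number of A in the 10 genome bases behind them, with triangles for the 7 ends of the 4 genes. The proximal ends of Syp, at 9, and Hrb98DE, at 10, lie at the upper edge, and the other 5 ends lie at 3 or 5, which hold 20.7% and 17.4% of all ends.

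AATAAA stood in the last 50 nt of 54.5% of all 3′ ends. It was present at 4 of the 7 ends here, namely the distal end of Hrb98DE, both ends of TBPH and the end of Sxl. Its first base lay 25, 23, 32 and 39 nt before these ends, for Hrb98DE, the proximal and the distal end of TBPH and Sxl. An annotated 3′ end lay within 150 nt of 90.9% of all ends and of 6 of the 7 here, all but the proximal end of Syp. For these 6 the distance was 0 or 1 nt. In 85.7% of multi-exon models the right-hand coordinate equals an annotated transcript end, and in 85.0% the left-hand coordinate lies exactly 1 nt inside one. The origin of the offset of 1 nt on the left was not tested, nor whether the ends were placed independently of an annotation. Signal positions and counts of A rest on these coordinates. The first bases marked for Hrb98DE are those of the models as given, 1 nt inside the annotated starts.

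The signal of the Sxl end is shown in capitals, in a stretch that stops 12 nt before the end.
Sxl 3′ end signal, chrX:7082934-7082963: atAATAAAtggcgaaaagcaaaacaaacat

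Few of the sequence elements searched near the ends were present. On the strand of the gene, TATAAA between 45 and 15 nt upstream stood at 8.54% of 4939 TSSs in the assembly, TCAGT or TCATT within 10 nt at 20.2% and TATCGATA from 100 nt upstream to 50 nt downstream at 8.06%. Of the 7 TSSs of the 4 genes, 1 held one of these, the upstream TSS of Hrb98DE, where TCAGT includes the first base of the model. In the last 300 nt of 3′ ends whose last exon is at least that long, TTTTTTT was present at 9.53% of 4114 ends and TGTGTG, a repeat of the kind TDP-43 binds, at 8.34%. Of the 5 such ends here, the proximal end of Hrb98DE had TGTGTG and none had TTTTTTT. That letters are missing from a window says nothing on whether a factor binds there.

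TBPH (FBgn0025790, minus strand of 2R, 23859067 to 23862593) kept its protein the same in all 3 models and varied the untranslated parts. All began at 23862593, the single annotated start, and had 7 exons. They measured 2418, 2158 and 1929 nt and followed the intron chains of TBPH-RD, TBPH-RE and TBPH-RF. With splice sites allowed to differ by 10 nt, these 3 chains counted as 2. Model 1 ended at 23859068 and models 2 and 3 at 23859331, so that 263 nt of the last exon were added in model 1. TBPH-RD itself ends at 23859330, and the 3′ end of model 1 lies within 1 nt of that of TBPH-RC, which has another chain. The 3′ UTR measured 478 nt in model 1 and 215 nt in models 2 and 3, and both 3′ ends lay in the same last exon, after a stop codon at 23859548. The frame from the start codon at 23861446 had 531 codons in each.

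The leader of TBPH differed by a donor and an acceptor. The first exon had 333 nt in models 1 and 2 and 104 nt in model 3, with donors 229 nt apart. The acceptor of exon 2 lay at 23861457 in model 1 and at 23861460 in models 2 and 3, 3 nt apart. With both, the part before the start codon measured 344, 347 and 118 nt. The longest and the shortest leader were thus both found with the proximal 3′ end, and the distal 3′ end with a leader 3 nt shorter than the longest. The fifth intron, of 59 nt, began with GC in place of GT, as it does in 5 of the 6 annotated transcripts. The annotated shorter product of 332 codons was in 0 models.

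**Figure D5:**
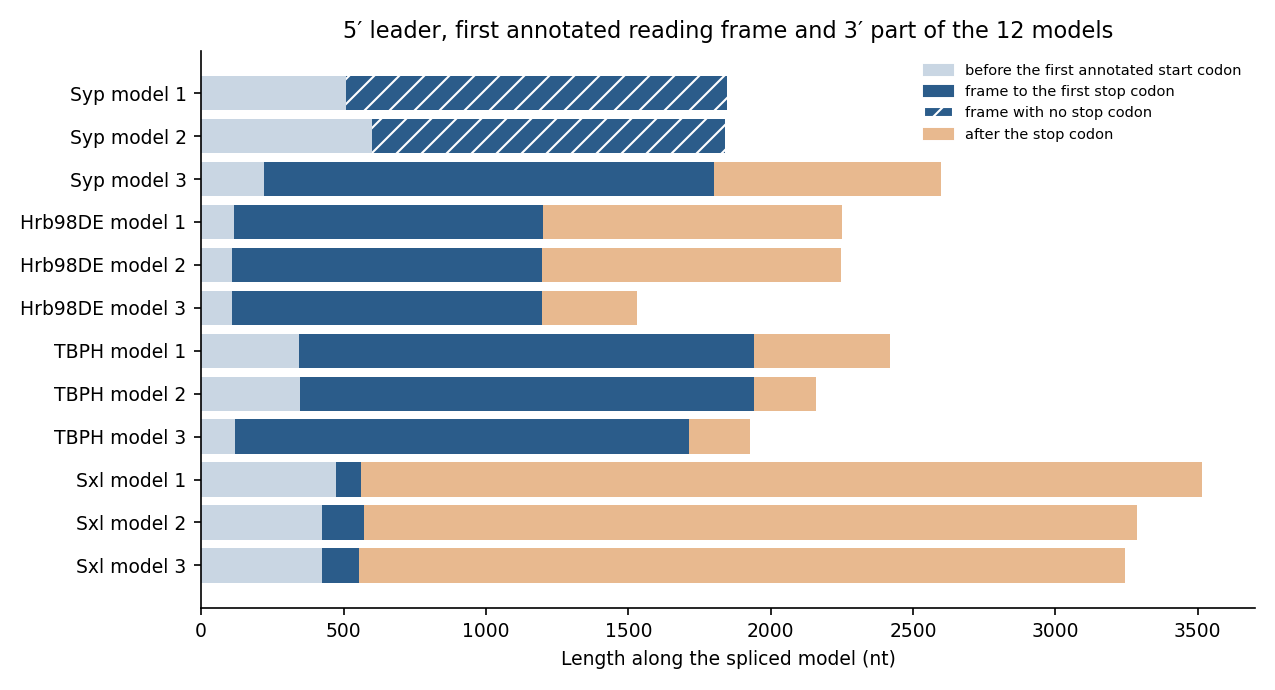
Stacked lengths in nt along each of the 12 spliced models of the part before the first annotated start codon, the frame from it and the part behind its stop codon, with hatching for frames without a stop. Coding length is constant within TBPH (531 codons) and nearly so in Hrb98DE (360 or 361), Syp models 1 and 2 have no stop, and the Sxl frames end after 28, 48 and 42 codons.

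Across the 4 genes, 2 had several TSSs (Syp and Hrb98DE) and 3 had several 3′ ends (all but Sxl). Over all 4696 genes 4.58% had 2 or more TSSs and 4.20% had 2 or more 3′ ends. Without 3′ ends followed by 7 or more A, TBPH alone of the 4 had several 3′ ends, as did 3.63% of all genes with an end left. Only genes with several models can have either, and 4.24% of genes had 3 or more models, as all 4 genes here do. The combination of 3 TSSs and 2 3′ ends of Syp was shared by 10 other genes, that of Hrb98DE (2 and 2) by 57, that of TBPH (1 and 2) by 107 and that of Sxl (1 and 1) by 4363. Of the RNA-binding protein genes listed below, 0 were among the first 3 groups, and Rbp6, glo, mub, rump and sm were among the last.

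The models covered part of the annotated ends. Within 50 nt at the TSS and 150 nt at the 3′ end, Syp had models at 3 of 5 annotated 5′ ends and 1 of 3 annotated 3′ ends, Hrb98DE at 2 of 2 and 2 of 3, TBPH at 1 of 1 and 2 of 2, and Sxl at 1 of 4 and 1 of 6. The longest annotated transcripts measured 8675 nt for Syp, 5964 nt for Sxl, 3222 nt for TBPH and 2265 nt for Hrb98DE, against longest models of 2599, 3515, 2418 and 2252 nt. For Syp and Sxl the annotated 3′ ends beyond 20805511 and 7082922 had no model. The annotated Sxl 3′ end at 7084164, which lies upstream of 7082922 in the mRNA, had none either. The use of these ends cannot be judged at an unknown depth, and whether long RNAs were captured less often was not tested.

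A strict form of the RNP-1 pattern of the RNA-recognition motif was searched in the predicted proteins. The pattern began with arginine or lysine, glycine, phenylalanine or tyrosine, and glycine or alanine. It went on with phenylalanine or tyrosine, then valine, isoleucine, leucine or methionine, then any residue, and last phenylalanine or tyrosine. It occurred 2 times in each Hrb98DE frame and 1 time in each Syp and TBPH frame. It occurred 0 times in the Sxl frames, which says only that this strict pattern is not in them. The Syp match lay upstream of the proximal 3′ end, so that models 1 and 2 also hold it.

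Other RNA-binding protein genes were taken from lists of such genes, which include the members. Of 16 hnRNP and TDP-43 family genes in the annotation 7 (43.8%) had a model: Syp, Hrb98DE and TBPH, glo with 3, sm with 2 and rump and mub with 1 each. Of 5 genes of the ELAV family, to which Sxl is related, Sxl alone had a model. Of 22 other RNA-binding proteins known from neurons Rbp6 alone had one. Together these lists had models for 9 of 43 genes (20.9%), and without the members for 5 of 39 (12.8%), where 33.4% of 13945 protein-coding genes had one. The genes with several TSSs or 3′ ends among them were members, 2 for TSSs and 3 for 3′ ends. Among the genes of sex determination and Sxl splicing 6 of 14 had a model, Sxl, tra, snf, fl(2)d, ix and msl-2, and all had 1 TSS and 1 3′ end.

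Of marker genes of the head, models were found for 7 of 9 photoreceptor genes (77.8%), such as the rhodopsin gene ninaE, and 3 of 4 glial genes (75.0%), but for 1 of 6 neuronal genes (16.7%) and 1 of 4 fat body genes (25.0%), where 33.4% of all protein-coding genes had one. The neuronal gene with a model was nSyb, and elav had none. The paper states that long-read sequencing typically under-represents long isoforms, and its methods for FLAM-seq name no size selection. Whether transcript length plays a part in these shares was not tested. A missing model is therefore no measure of neuronal RNA. Of 4 germline genes the testis gene Mst84Da had a model.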

How the data were processed

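The deposited file holds exon start and end coordinates (other unit: genome positions, with no counts, levels or samples) of isoform models. Per the labels, the build is dm6, and featureCounts is named in the submitters' processing notes, without a role. Per the study's methods, the authors merged the reads of the 3 samples, mapped them with STARlong, made models with FLAIR after correcting junctions with short reads, and kept starts found in a promoter database. This raises agreement with annotated positions and can miss rare isoforms. The authors later filtered their assemblies by supported 3′ ends, and the sources used here do not say whether the deposited file is from before or after that step. A column of the file with 1 undefined whole number per model was not used.

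Models were taken by FlyBase identifier, models of 1 exon were given the strand of their gene, and models are numbered from the most upstream start and then by length. Annotation came from Ensembl release 115 and sequence from RefSeq's copy of the same build. Ends were grouped by single linkage (50 nt for 5′ ends, 150 nt for 3′ ends). Poly(A) signals were searched in the last 50 nt of genome sequence up to each end, in a fixed order of 12 hexamers. A was counted in the next 10 bases. Frames began at annotated start codons. Gene names that the annotation does not hold were left out of the lists, and 1 further planned list is not reported here. Scripts ran in Python 3.11.15 and matplotlib 3.10.9 and were tested on simulated models. The members, lists and named genes (the members, list genes with a model and list genes with the same numbers of ends) were chosen with earlier results of these data known.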

Additional observations from a re-analysis of the deposited data

How the results depend on the processing

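Under other settings 87 values were within 1.5 times those reported and 14 were not. Leaving out 3′ ends followed by 7 or more A, chosen after seeing the data, left 1 3′ end in Syp and 1 in Hrb98DE. Counting full annotated chains alone left 0 Syp models, since model 1 is a part of a longer chain. With AATAAA searched in the last 20 nt, 0 ends of Hrb98DE, 0 of TBPH and 0 of Sxl had it, since it begins 23 to 39 nt before the ends. Wider windows of 100 nt for 5′ and 300 nt for 3′ ends joined the tandem ends of TBPH into 1 5′-3′ isoform. Counting as optional any internal exon absent from a model that spans it, shifted splice sites included, gave 2 for TBPH and 7 for Sxl. The longest frame from any ATG had 331, 322 and 314 codons in Sxl models 1, 2 and 3. Among genes with 2 or more models, 30.8% had several 5′ ends and 28.2% several 3′ ends, by construction higher than among all genes.

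No paired analysis was possible because the reads of the 3 samples were merged before the models were made; no replicate was left out for the same reason. The number of reads behind each model limits every statement on isoforms that were not found.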
